A study of Mus musculus with 8 samples.

Results

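The V segments of the immunoglobulin κ light chain locus are the genes whose symbol starts with *Igkv*, after Entrez identifiers were matched to mouse symbols, with at least 10 counts summed over the 8 libraries. All 103 *Igkv* segments listed among the 27179 genes of the table passed this minimum, and the lowest of them, *Igkv8-26*, had 54 counts in all, so that no segment stood just outside the minimum. RefSeq lists 162 *Igkv* genes, 60 of them as pseudogenes. The 103 members comprised every V segment of that list and 1 of its pseudogenes, *Igkv13-71-1*. They belong to 20 families, numbered by the first number of the symbol, of which family 4 was the largest with 28 members, before family 8 with 11 and family 1 with 10.

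In pre-B cells that have a functional heavy chain, the RAG recombinase joins 1 Vκ segment to 1 Jκ segment, and the joined exon is spliced to the constant region *Igkc* to give the κ chain. Unrearranged Vκ segments are also transcribed at a low level, as germline transcripts from their own promoters, and the κ locus opens in small pre-B cells. The segments lie in both orientations, and segments oriented like the J segments join them by deletion, whereas those in the opposite orientation join by inversion. The counts of an exon do not tell germline from rearranged transcripts.

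RNA of early large pre-B (early LPre-B) and small pre-B (sPre-B) cells sorted from mouse bone marrow was sequenced in 8 libraries, 2 for each stage and genotype. Every mouse carried *Upf1* Flox/Flox and 1 *Igh* B1-8hi allele, a heavy chain that is already rearranged. The Ctrl mice were Mb1 +/+, and the cKO mice were Mb1 Cre/+, in which Cre is expressed from *Cd79a* in B-lineage cells and removes exons of *Upf1*, the RNA helicase of nonsense-mediated decay. The mice were adults on a C57BL/6 background according to the methods, and the number of animals behind a library was not given in the sources used here. With 2 libraries per group, *P* values measured the spread between these libraries, and an exact permutation test could not have passed 0.05.

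Totals lay between 68516857 and 160426338 counts per library, and a level of 3 counts corresponded to 0.0219 to 0.0424 CPM (counts scaled by library size and edgeR's TMM factors), which covers counting error only. The level of *Upf1* did not fall with the cKO label (185 and 197 CPM in Ctrl and 281 and 293 CPM in cKO sPre-B cells), and counts per gene do not resolve the exons removed. *Cd79a*, which holds the Cre allele, was at 1474 and 1598 CPM in Ctrl and 403 and 325 CPM in cKO sPre-B cells. *Xist* was at 3.87 and 2.14 CPM in the replicate 2 libraries of Ctrl mice and at 3123 CPM or more in the other 6 libraries, so that a difference in sex cannot be told apart from the replicate among Ctrl libraries. The genotype comparisons therefore set cKO libraries that were all high in *Xist* against a Ctrl group of mixed *Xist* level. The part of sex in them was not tested. All 6 B-lineage markers were detected in every library. In Ctrl early LPre-B against sPre-B libraries, *Vpreb1* was at 227 and 137 against 5.69 and 4.89 CPM, and *Il2ra* at 36.9 and 53.3 against 474 and 478 CPM. In cKO libraries *Vpreb1* was at 131 and 121 against 9.19 and 10.2 CPM, and *Il2ra* at 18.6 and 25.9 against 479 and 532 CPM. *Kit* did not pass edgeR's quasi-likelihood test between the stages in cKO cells (adjusted *P* = 0.0509). The stage markers also differed between genotypes. In early LPre-B cells 3 of 8 early large pre-B and 3 of 4 small pre-B markers were lower in cKO and 0 higher, against 13.9% and 12.7% of all genes.

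The coding exons of 7 segments are shown because the comparisons below turn on them. The sequences are the first 300 bases from the start codon in the joined leader and V exons of GENCODE M21 transcripts on GRCm38 (mm10), 5′ to 3′ on the strand of the gene, and the coordinates are those of the whole gene. In the 3 pairs the capitals mark the bases that differ between the pair. *Igkv1-88* (chr6:68862265-68863031, minus strand) gave the most counts of any segment in early LPre-B cells.
Igkv1-88: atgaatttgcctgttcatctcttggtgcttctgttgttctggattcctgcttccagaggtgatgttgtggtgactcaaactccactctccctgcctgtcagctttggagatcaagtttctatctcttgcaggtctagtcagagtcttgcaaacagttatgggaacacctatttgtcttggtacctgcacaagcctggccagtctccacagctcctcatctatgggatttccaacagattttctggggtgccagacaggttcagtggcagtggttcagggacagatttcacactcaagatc
*Igkv9-124* (chr6:67942076-67942540, minus strand) and *Igkv9-120* (chr6:68049983-68050454, plus strand) differ at 15 of these 300 bases and moved in opposite directions between the stages in Ctrl cells.
Igkv9-124: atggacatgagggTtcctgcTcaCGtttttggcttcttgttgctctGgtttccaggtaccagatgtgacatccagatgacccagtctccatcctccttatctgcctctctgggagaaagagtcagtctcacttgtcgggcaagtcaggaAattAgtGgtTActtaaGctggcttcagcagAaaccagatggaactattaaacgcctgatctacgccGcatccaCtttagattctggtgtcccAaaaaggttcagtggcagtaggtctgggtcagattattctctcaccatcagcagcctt
Igkv9-120: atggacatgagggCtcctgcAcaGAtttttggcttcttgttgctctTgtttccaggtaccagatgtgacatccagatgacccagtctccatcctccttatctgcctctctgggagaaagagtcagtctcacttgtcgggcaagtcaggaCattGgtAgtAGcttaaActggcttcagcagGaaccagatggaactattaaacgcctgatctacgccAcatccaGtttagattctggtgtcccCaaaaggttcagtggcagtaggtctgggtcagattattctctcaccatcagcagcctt
*Igkv4-73* (chr6:69197583-69198116, minus strand), which GENCODE annotates as a pseudogene and RefSeq as a V segment, differs from *Igkv4-79* (chr6:69042972-69043505, minus strand) at 11 of these 300 bases. Neither holds a stop codon in the frame of its first ATG.
Igkv4-73: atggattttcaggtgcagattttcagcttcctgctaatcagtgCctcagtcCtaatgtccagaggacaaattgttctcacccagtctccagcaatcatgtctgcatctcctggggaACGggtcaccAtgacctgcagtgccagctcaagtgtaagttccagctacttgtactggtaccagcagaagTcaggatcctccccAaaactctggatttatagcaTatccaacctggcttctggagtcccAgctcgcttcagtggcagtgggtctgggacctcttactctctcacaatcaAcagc
Igkv4-79: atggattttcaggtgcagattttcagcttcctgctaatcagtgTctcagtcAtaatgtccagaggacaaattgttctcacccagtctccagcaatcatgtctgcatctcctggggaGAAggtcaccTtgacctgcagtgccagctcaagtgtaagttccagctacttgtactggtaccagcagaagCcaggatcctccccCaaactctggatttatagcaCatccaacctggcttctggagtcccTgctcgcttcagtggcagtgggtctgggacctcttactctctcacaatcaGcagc
*Igkv3-12* (chr6:70518250-70518849, plus strand) and *Igkv3-7* (chr6:70607437-70608036, plus strand), both close to the J segments, differ at 8 of these 300 bases and were both lower in cKO cells.
Igkv3-12: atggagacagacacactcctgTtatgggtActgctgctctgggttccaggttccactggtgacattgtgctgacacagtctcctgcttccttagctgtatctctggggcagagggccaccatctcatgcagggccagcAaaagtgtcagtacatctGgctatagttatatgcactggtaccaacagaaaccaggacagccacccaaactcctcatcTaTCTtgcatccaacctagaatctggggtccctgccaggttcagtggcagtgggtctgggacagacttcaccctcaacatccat
Igkv3-7: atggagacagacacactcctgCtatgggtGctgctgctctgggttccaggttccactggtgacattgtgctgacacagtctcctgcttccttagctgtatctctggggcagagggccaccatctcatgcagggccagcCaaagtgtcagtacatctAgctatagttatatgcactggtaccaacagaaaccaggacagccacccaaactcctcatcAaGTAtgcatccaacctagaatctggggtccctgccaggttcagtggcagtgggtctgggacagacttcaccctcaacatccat

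Transcripts of the *Igkv* segments were a small part of the RNA at both stages and several-fold higher in sPre-B cells of both genotypes. The 103 segments summed to 61.1 and 62.7 CPM in Ctrl early LPre-B libraries and to 555 and 549 CPM in Ctrl sPre-B libraries. The cKO-labelled libraries gave sums of 69.7 and 66.5 CPM in early LPre-B cells and 698 and 625 CPM in sPre-B cells. The libraries of the stages did not overlap in either genotype, with a ratio of the means of 8.92 in Ctrl and 9.71 in cKO cells. Between genotypes, the total of cKO over Ctrl was 1.20 in sPre-B and 1.10 in early LPre-B cells, again without overlap of the 2 libraries of each group. No test was run on these totals, and more cells with a transcribed segment and more RNA per cell cannot be told apart in such bulk samples.

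The constant region *Igkc* was at 151 and 154 CPM in Ctrl early LPre-B and 618 and 722 CPM in Ctrl sPre-B libraries, and at 299 and 282 against 1100 and 1179 CPM in the cKO libraries of the 2 stages. It was higher in cKO than in Ctrl cells at both stages (Log2FC 0.77 ± 0.13 (SE), adjusted *P* = 0.00194 in sPre-B, and 0.93 ± 0.13, adjusted *P* = 8.58e-04 in early LPre-B cells, with edgeR's quasi-likelihood test). The *Igkv* counts per *Igkc* count were 0.404 and 0.408 in Ctrl and 0.233 and 0.236 in cKO early LPre-B cells. In sPre-B cells the ratio was 0.899 and 0.760 in Ctrl and 0.634 and 0.530 in cKO cells. The ratio was therefore higher in sPre-B cells of each genotype and lower in the cKO libraries of each stage, without overlap of the groups.

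In early LPre-B cells the *Igkv* counts were concentrated on few segments. The 10 segments with the highest level held 77.9% and 76.8% of all *Igkv* counts in Ctrl and 85.7% and 79.4% in cKO early LPre-B cells, against 32.6% to 37.5% in the 4 sPre-B libraries. The effective number of segments, the exponential of the Shannon entropy of their shares, was 8.62 to 17.0 in the early LPre-B libraries and 61.6 to 66.8 in the sPre-B libraries. *Igkv1-88* alone held 36.7% and 33.7% of the *Igkv* counts in Ctrl and 52.7% and 42.2% in cKO early LPre-B cells. In sPre-B cells the segment with the most counts was *Igkv1-135* in all 4 libraries, with 9.47% to 11.3%. Of the 10 leading segments in Ctrl early LPre-B libraries, 3 were among the 10 leading in Ctrl sPre-B libraries, and 9 were among the 10 leading in cKO early LPre-B cells.

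**Figure D1:**
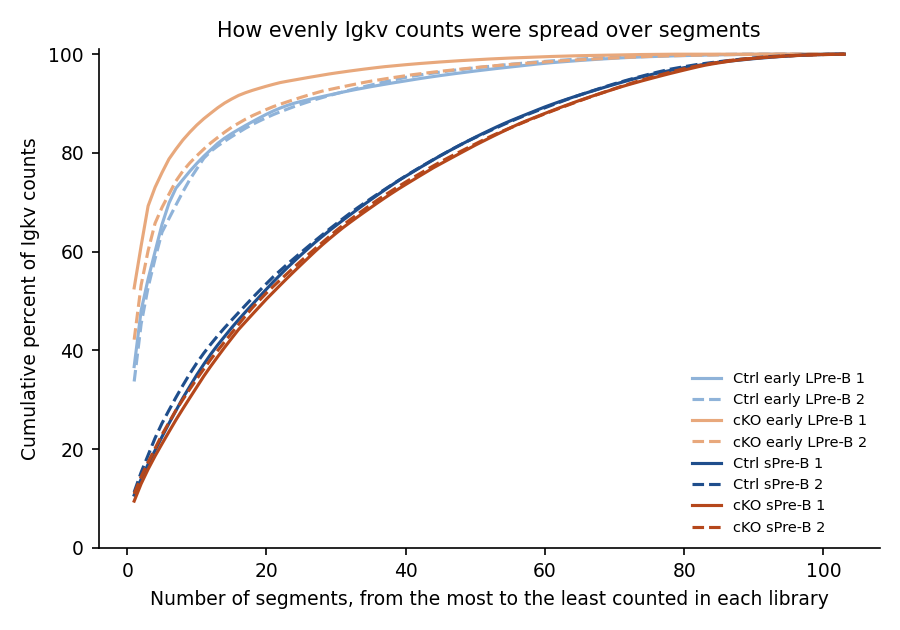
Cumulative percent of *Igkv* counts (vertical axis) held by the segments ranked from the most to the least counted in each library (horizontal axis), with 1 line per library. The 4 early LPre-B lines start at 33.7% to 52.7% with the first segment and the 4 sPre-B lines at 9.47% to 11.3%.

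Segments with a sizeable level already in early LPre-B cells lay in a few places. *Igkv9-124* was at 6.94 and 7.30 CPM in Ctrl and 5.93 and 7.36 CPM in cKO early LPre-B cells, and its neighbour *Igkv9-123* at 3.39 and 3.64 against 2.64 and 3.71 CPM. *Igkv12-89*, chosen after its values were seen, lies next to *Igkv1-88* and was at 3.37 and 3.38 against 5.63 and 4.62 CPM. Of the 10 leading segments in Ctrl early LPre-B libraries, 8 lay among the 34 segments farthest from the J segments, 1 among the middle 34 and 1 among the 35 nearest. The one of the middle, *Igkv4-59*, named after its values were seen, had 534 and 6 counts, so that its place rested on replicate 1 alone. At the near end, *Igkv3-2* (23.5 kb from *Igkj1*) was at 0.889 and 1.73 CPM and *Igkv3-1*, the nearest segment at 18.4 kb, at 0.802 and 1.35 CPM in Ctrl early LPre-B libraries. By contrast, 6 segments had 0 counts in both Ctrl early LPre-B libraries and 6 had 0 in both cKO early LPre-B libraries.

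Most segments were higher in sPre-B than in early LPre-B cells of Ctrl mice. Of the 103 segments, 96 were higher and 3 were lower with an adjusted *P* below 0.05, against 25.4% higher and 27.6% lower of all 19920 genes tested. The median Log2FC of the segments was 4.79, and 4.75 when the 5 segments at 0 in Ctrl early LPre-B libraries were set to the lower bound that 3 counts allow, while the median over all genes was 0.00. The libraries of the stages did not overlap for 99 segments that were higher and 3 that were lower in sPre-B cells, against 37.7% and 38.3% of all genes. The 4 segments that did not pass the test, named after their values were seen, were *Igkv12-89*, *Igkv4-59*, *Igkv3-9* and the pseudogene *Igkv13-71-1*, which had 0 counts in every Ctrl library. Of these calls, 94 and 3 were kept in each of the 8 fits that left out 1 library, and *Igkv5-37* and *Igkv1-35* were lost without replicate 1 of early LPre-B cells, the latter also without either sPre-B library.

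The 8 segments with the highest mean CPM, not corrected for length, in Ctrl sPre-B libraries were *Igkv1-135*, *Igkv3-2*, *Igkv3-12*, *Igkv19-93*, *Igkv3-7*, *Igkv8-16*, *Igkv8-23-1* and *Igkv1-117*. *Igkv1-135*, the second segment from the far end of the locus (3112.1 kb from *Igkj1*), was at 2.64 and 4.65 CPM in early LPre-B and 59.4 and 61.9 CPM in sPre-B cells (Log2FC 4.07 ± 0.32 (SE), adjusted *P* = 6.82e-06). Per kb of exon it reached 151 and 157 CPM in the Ctrl sPre-B libraries, above every other segment measured per kb. The next segments lay close to each other. *Igkv3-12*, *Igkv19-93*, *Igkv3-2* and *Igkv3-7* were at 50.6, 49.2, 48.9 and 44.6 CPM per kb on average, and the 2 libraries of *Igkv3-12*, at 39.8 and 61.4, lay on either side of those of the other 3 segments.

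Segments that were almost silent in early LPre-B cells gave large stage differences. *Igkv8-16* had 8 and 7 counts in the Ctrl early LPre-B and 1321 and 1005 in the Ctrl sPre-B libraries (Log2FC 7.70 ± 0.47 (SE), adjusted *P* = 1.82e-06). *Igkv6-14* had 0 and 0 counts and 103 and 57 counts, at least 74.0-fold higher against a floor of 3 counts over the group. *Igkv8-18* had 0 and 2 against 487 and 357 counts (Log2FC 8.98 ± 0.85 (SE), adjusted *P* = 2.03e-05), and this Log2FC was 7.71 without Ctrl early LPre-B replicate 1 and 12.21 without replicate 2. Each of these segments lies among the 35 nearest to the J segments, and its early LPre-B libraries were all below its sPre-B libraries. In contrast *Igkv19-93*, at 1.85 and 1.72 CPM in early LPre-B and 16.7 and 19.0 CPM in sPre-B cells, started from a higher level and differed less (Log2FC 3.32 ± 0.15 (SE), adjusted *P* = 5.65e-07).

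Outside the 8 leading segments, the segments with the highest mean CPM of families 4, 5 and 6 were also higher in sPre-B cells. *Igkv6-17* was at 0.0947 and 0.102 CPM in Ctrl early LPre-B and 13.0 and 12.9 CPM in Ctrl sPre-B libraries (Log2FC 7.03 ± 0.40 (SE), adjusted *P* = 1.31e-06), *Igkv5-43* at 0.0219 and 0.0892 against 11.3 and 9.95 CPM (Log2FC 7.76 ± 0.40 (SE), adjusted *P* = 8.41e-07), and *Igkv4-68* at 0.0947 and 0.0637 against 8.37 and 6.45 CPM (Log2FC 6.47 ± 0.44 (SE), adjusted *P* = 3.21e-06). The early LPre-B libraries were below the sPre-B libraries for each, and the Log2FC of *Igkv5-43* was 6.93 without Ctrl early LPre-B replicate 1 and 8.93 without replicate 2. *Igkv3-1*, the segment nearest to the J segments, was at 0.802 and 1.35 against 4.62 and 6.63 CPM (Log2FC 2.40 ± 0.30 (SE), adjusted *P* = 1.33e-04), a smaller difference. With the libraries scaled to their *Igkv* total, 70 segments were higher and 8 lower in Ctrl sPre-B libraries.

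The 3 segments that were lower in Ctrl sPre-B libraries were *Igkv1-88*, *Igkv9-124* and *Igkv9-123*, each among the 10 leading segments of the early LPre-B libraries. *Igkv1-88* was at 22.4 and 21.1 CPM in early LPre-B and 8.50 and 9.43 CPM in sPre-B cells of Ctrl mice (Log2FC −1.28 ± 0.15 (SE), adjusted *P* = 9.07e-05). *Igkv9-124* was at 6.94 and 7.30 against 3.38 and 2.96 CPM (Log2FC −1.17 ± 0.18 (SE), adjusted *P* = 4.42e-04). *Igkv9-123* was at 3.39 and 3.64 against 1.69 and 1.27 CPM (Log2FC −1.25 ± 0.24 (SE), adjusted *P* = 0.00195). Together they held 53.6% and 51.1% of the *Igkv* counts in Ctrl early LPre-B libraries and 2.44% and 2.49% in Ctrl sPre-B libraries. *Igkv9-120*, the paralog whose exons are shown above beside those of *Igkv9-124*, went the other way, from 0.408 and 0.548 to 9.63 and 7.82 CPM (Log2FC 4.21 ± 0.28 (SE), adjusted *P* = 2.68e-06).

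**Figure D2:**
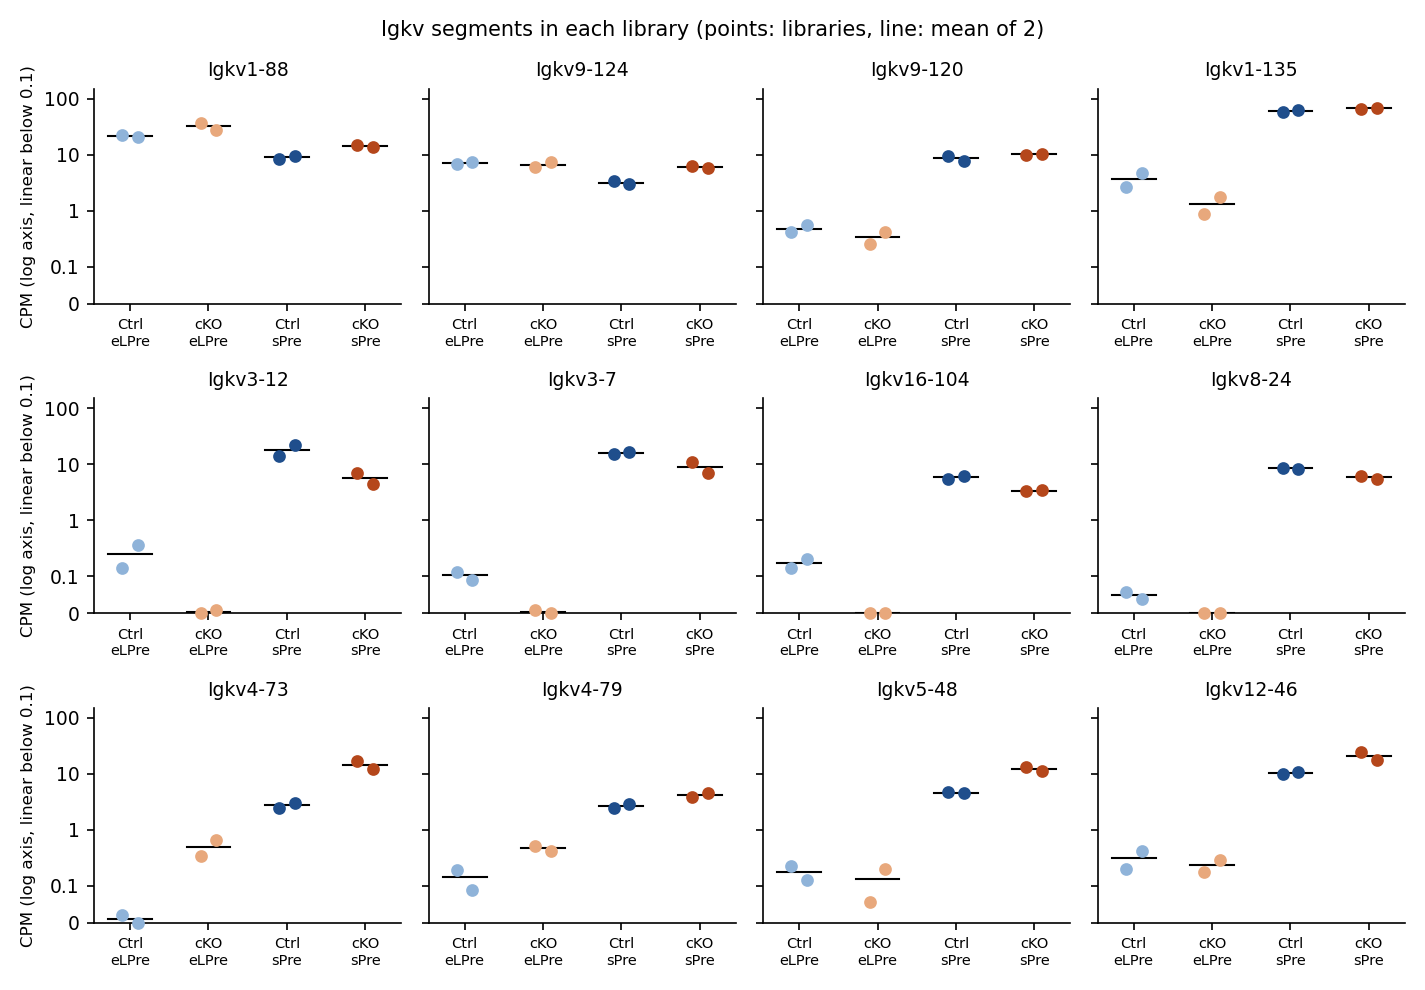
CPM (vertical axis, logarithmic above 0.1 and linear below) of 12 segments in each library of the 4 groups (horizontal axis), with points for libraries and a line for the mean of 2. *Igkv1-88* is higher in early LPre-B than in sPre-B libraries of both genotypes and *Igkv9-124* in those of Ctrl mice, the other 10 are higher in sPre-B libraries, and *Igkv4-73* is higher in cKO than in Ctrl libraries at both stages.

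In the libraries labelled cKO, 98 segments were higher and 1 was lower in sPre-B than in early LPre-B cells, against 27.4% and 27.6% of all genes, with a median Log2FC of 5.65 over the segments (5.51 with the 6 segments at 0 in early LPre-B cells at their lower bound) and 0.05 over all genes. The libraries of the stages did not overlap for 99 higher segments and 1 lower segment, against 40.3% and 38.3% of all genes. The segment that was lower was *Igkv1-88*, at 36.7 and 28.1 CPM in early LPre-B and 15.2 and 13.6 CPM in sPre-B cells (Log2FC −1.17 ± 0.15 (SE), adjusted *P* = 1.48e-04). *Igkv9-124* was at 5.93 and 7.36 against 6.34 and 5.69 CPM, and *Igkv9-123* at 2.64 and 3.71 against 3.87 and 3.48 CPM, with overlapping libraries and adjusted *P* values of 0.514 and 0.479. *Igkv12-89* and *Igkv4-90*, the latter named after its values were seen, also did not pass the test. Of the calls, the one of *Igkv13-71-1* was lost without replicate 1 of either stage.

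Among the largest stage differences in cKO cells were segments with 0 or 1 count in early LPre-B cells. *Igkv8-24* had 0 and 0 counts in early LPre-B and 565 and 689 counts in sPre-B cells, at least 456-fold higher. *Igkv16-104*, the single measured segment of its family, had 0 and 0 against 309 and 426 counts, at least 267-fold higher. *Igkv3-7* had 1 and 0 against 1007 and 886 counts (Log2FC 10.69 ± 0.48 (SE), adjusted *P* = 5.77e-07), and this Log2FC was 12.85 without cKO early LPre-B replicate 1 and 9.74 without replicate 2. All 3 were called higher in sPre-B cells of Ctrl mice as well, where *Igkv16-104* went from 0.138 and 0.204 to 5.53 and 6.28 CPM, *Igkv8-24* from 0.0583 and 0.0382 to 8.59 and 8.33 CPM and *Igkv3-7* from 0.117 and 0.0892 to 15.5 and 16.5 CPM.

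The stage difference was not even along the locus, which spans 3166.3 kb between *Igkv2-137* and *Igkj1* on chromosome 6. With the segments ordered by position and divided into 34 distal, 34 middle and 35 proximal segments, the proximal ones nearest to the J segments, the median Log2FC between the stages in Ctrl cells was 4.48 for the distal, 4.78 for the middle and 6.50 for the proximal segments. In cKO cells the medians were 4.32, 5.71 and 7.02. Spearman's rho between the distance from *Igkj1* and the Log2FC was −0.32 in Ctrl and −0.39 in cKO cells over the 103 segments, which share libraries and are not independent. Between the distance and the mean CPM per kb of exon, over 102 segments, rho was 0.27 in Ctrl and 0.40 in cKO early LPre-B cells. In sPre-B cells it was −0.02 in Ctrl and 0.04 in cKO cells. The distal segments held 79.9% and 82.9% of the *Igkv* counts in Ctrl early LPre-B libraries and 42.0% and 42.5% in Ctrl sPre-B libraries. Among them *Igkv1-88*, *Igkv9-124* and *Igkv9-123* together held 53.6% and 51.1% in Ctrl early LPre-B and 2.44% and 2.49% in Ctrl sPre-B libraries. The proximal segments held 7.44% and 10.7% in Ctrl early LPre-B and 34.6% and 35.1% in Ctrl sPre-B libraries.

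**Figure D3:**
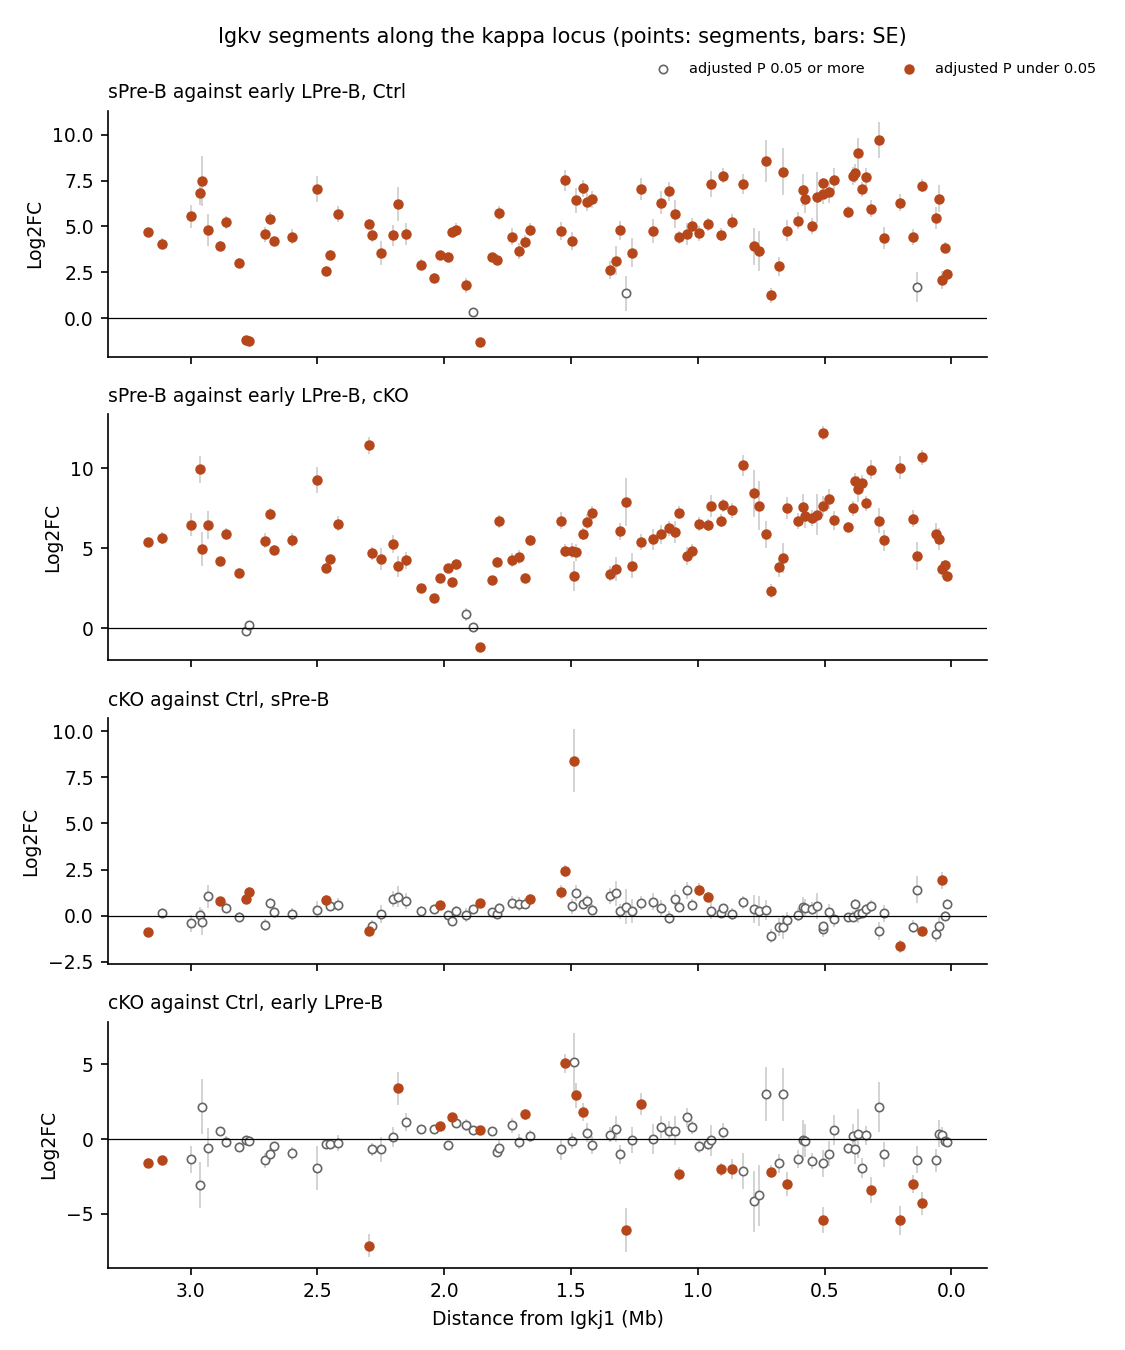
Log2FC with its SE (vertical axis) of each segment against its distance from *Igkj1* in Mb (horizontal axis, J segments at the right) in the 4 comparisons, with filled points at an adjusted *P* under 0.05. Segments at 0 in both groups are left out. Both stage panels lie above 0 except for a few distal segments, and the genotype panels scatter on both sides of 0.

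By family, the segments of families 5, 6 and 8, which lie within 995.4 kb of *Igkj1*, had median stage differences of 6.58 to 7.31 in Ctrl cells, and all 25 of their members were higher in sPre-B cells. Family 9 had 2 higher and 2 lower of its 4 members, with a median of 1.39, against 25.4% higher and 27.6% lower of all genes. Family 1 held 45.0% and 45.1% of the *Igkv* counts in Ctrl early LPre-B libraries, largely through *Igkv1-88*, and 19.2% and 18.6% in Ctrl sPre-B libraries. Family 8 went from 1.14% and 1.44% to 12.3% and 11.5%. By orientation, the 64 segments on the minus strand, opposite to the J segments, held 80.2% and 72.6% of the *Igkv* counts in Ctrl early LPre-B and 47.4% and 46.6% in Ctrl sPre-B libraries. *Igkv1-88*, *Igkv9-124* and *Igkv9-123*, with 53.6% and 51.1% of the early LPre-B counts, are all on the minus strand, and the median stage Log2FC was 4.80 on the minus and 4.64 on the plus strand.

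**Figure D4:**
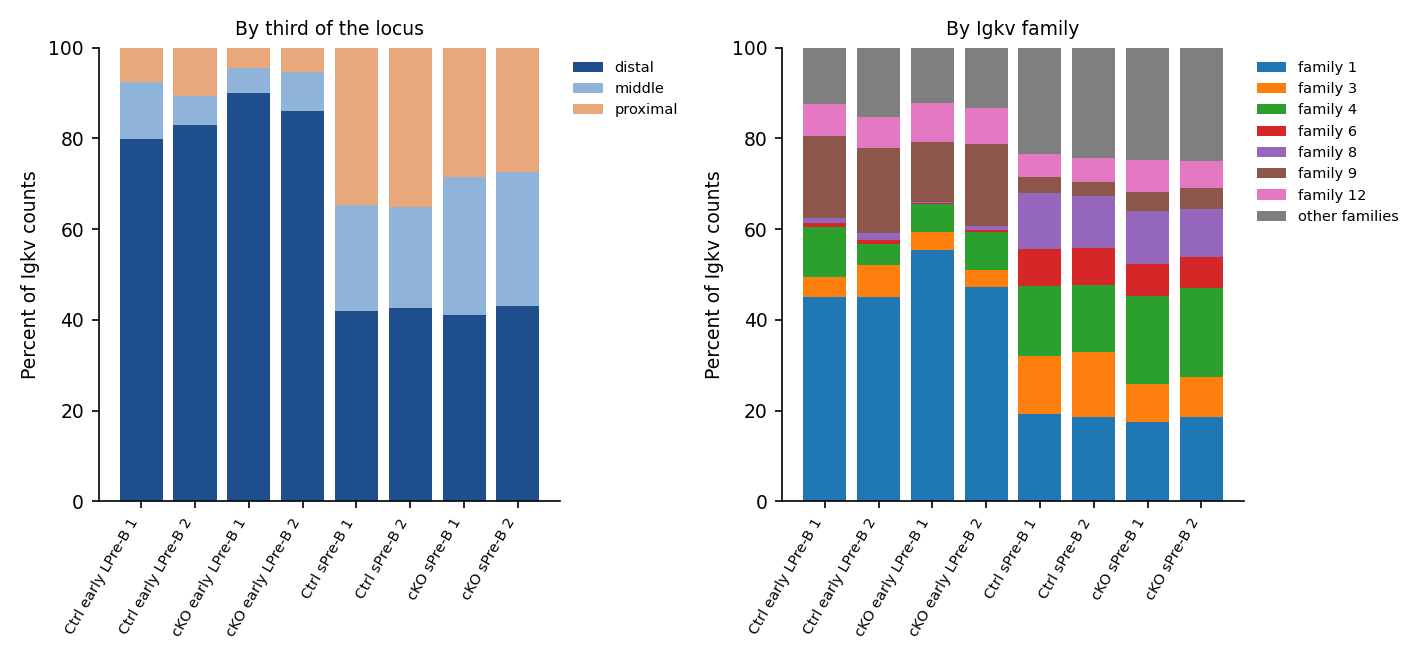
Percent of *Igkv* counts (vertical axis) by position along the locus (left) and by family (right) in each of the 8 libraries (horizontal axis). The distal segments hold 79.9% to 90.0% in early LPre-B libraries and 41.1% to 43.0% in sPre-B libraries, and the middle segments hold more in cKO than in Ctrl sPre-B libraries.

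Between genotypes, 86 of the 103 segments did not pass the test in sPre-B cells. Of the 103 segments, 13 were higher and 4 were lower in cKO cells with an adjusted *P* below 0.05, against 17.1% higher and 12.6% lower of all genes, so the share of segments called was near or below that of all genes. The median Log2FC was 0.35 over the segments and 0.02 over all genes, and 79 of the 103 segments had a positive Log2FC, against 51.5% of all genes. The libraries did not overlap for 61 segments that were higher and 17 that were lower in cKO cells, against 34.8% and 32% of all genes. Leaving out cKO replicate 1 of sPre-B cells left 4 segments higher and 2 lower, leaving out Ctrl replicate 1 left 6 and 2, and leaving out Ctrl replicate 2 left 5 and 0. The other 5 fits without 1 library gave 11 to 16 higher and 3 to 5 lower, and the 4 sPre-B libraries fitted alone gave 22 and 7. With the libraries scaled to their *Igkv* total, 7 segments were higher and 5 lower.

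Of the 13 segments that were higher in cKO sPre-B cells, 4 kept the call in each of the 8 fits without 1 library, namely *Igkv4-73*, *Igkv13-71-1*, *Igkv9-123* and *Igkv9-124*. *Igkv4-73* was at 2.49 and 2.998 CPM in Ctrl and 16.8 and 12.4 CPM in cKO sPre-B cells (Log2FC 2.41 ± 0.34 (SE), adjusted *P* = 8.29e-04), and at 3 and 0 counts in the Ctrl libraries and 36 and 85 counts in cKO early LPre-B cells (Log2FC 5.07 ± 0.64 (SE), adjusted *P* = 5.48e-04, and 4.48 to 8.62 over the fits without 1 library). All 4 cKO libraries were thus above the Ctrl libraries of their stage. *Igkv13-71-1*, named after its values were seen, had 0 counts in all 4 Ctrl libraries, 2 and 8 in cKO early LPre-B and 60 and 22 in cKO sPre-B cells, at least 19.5-fold higher in sPre-B cells (adjusted *P* = 0.00926).

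*Igkv9-123* was at 1.69 and 1.27 CPM in Ctrl and 3.87 and 3.48 CPM in cKO sPre-B cells (Log2FC 1.31 ± 0.24 (SE), adjusted *P* = 0.00360), and *Igkv9-124* at 3.38 and 2.96 against 6.34 and 5.69 CPM (Log2FC 0.92 ± 0.18 (SE), adjusted *P* = 0.00434). The cKO libraries of both segments were above the Ctrl libraries in sPre-B cells and overlapped with them in early LPre-B cells. *Igkv1-88*, the third of the segments that were lower in Ctrl sPre-B than in Ctrl early LPre-B libraries, was at 8.50 and 9.43 against 15.2 and 13.6 CPM (Log2FC 0.69 ± 0.15 (SE), adjusted *P* = 0.00850). Its call was lost without Ctrl replicate 1 or without cKO replicate 1 of sPre-B cells, and the Log2FC of the 8 fits lay between 0.59 and 0.77. Of 8 markers of early large pre-B cells, 2 were also higher and 1 lower in cKO sPre-B libraries, against 17.1% and 12.6% of all genes. The higher ones were *Igll1* (Log2FC 0.66 ± 0.18 (SE)) and *Vpreb1* (0.88 ± 0.21), and the lower one was *Dntt* (−0.72 ± 0.20). Their part in the levels of these segments was not tested.

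Of the other segments that were higher in cKO sPre-B cells, *Igkv3-3* was at 1.14 and 0.990 CPM in Ctrl and 5.31 and 2.77 CPM in cKO cells (Log2FC 1.92 ± 0.46 (SE), adjusted *P* = 0.0119). *Igkv5-48* was at 4.71 and 4.45 against 13.3 and 11.1 CPM (Log2FC 1.41 ± 0.34 (SE), adjusted *P* = 0.0124), and *Igkv12-46* at 9.70 and 10.9 against 24.5 and 17.5 CPM (Log2FC 1.03 ± 0.28 (SE), adjusted *P* = 0.0213). The libraries of the genotypes did not overlap for any of the 3. Each call was lost without cKO replicate 1 or without Ctrl replicate 2 of sPre-B cells, and those of *Igkv5-48* and *Igkv12-46* also without Ctrl replicate 1, with adjusted *P* values of up to 0.106, 0.0751 and 0.153. *Igkv10-94* and, named after their values were seen, *Igkv9-129*, *Igkv14-111*, *Igkv4-78* and *Igkv4-74* were the remaining segments called higher, with a Log2FC of 0.59 to 1.29, and the call was kept in 5 of the 8 fits for *Igkv9-129* and *Igkv14-111*, in 4 for *Igkv4-78* and *Igkv4-74* and in 0 for *Igkv10-94*.

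The 4 segments that were lower in cKO sPre-B cells were *Igkv3-12*, *Igkv2-137*, *Igkv3-7* and *Igkv16-104*. *Igkv3-12* was at 14.3 and 22.0 CPM in Ctrl and 7.02 and 4.46 CPM in cKO cells (Log2FC −1.66 ± 0.36 (SE), adjusted *P* = 0.00755), and the call was lost without Ctrl replicate 2 (adjusted *P* = 0.0595). *Igkv3-7* was at 15.5 and 16.5 against 10.9 and 7.08 CPM (Log2FC −0.84 ± 0.24 (SE), adjusted *P* = 0.0267). *Igkv2-137*, the segment farthest from the J segments, was at 11.9 and 14.5 against 5.90 and 8.46 CPM (Log2FC −0.87 ± 0.21 (SE), adjusted *P* = 0.0139), and its transcript overlaps the gene *Gm42889*, whose reads cannot be told apart without strand. The call of *Igkv3-7* was lost without either Ctrl library or cKO replicate 2, that of *Igkv2-137* without Ctrl replicate 2 or cKO replicate 1, and that of *Igkv16-104* without any of the 4 sPre-B libraries, although the direction was kept in all 8 fits for each.

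The genotypes also differed in how *Igkv* counts were spread in sPre-B cells. The middle segments of the locus held 23.4% and 22.4% of the *Igkv* counts in Ctrl and 30.5% and 29.5% in cKO libraries, and the proximal segments 34.6% and 35.1% against 28.4% and 27.5%. The distal segments held 42.0% and 42.5% in Ctrl and 41.1% and 43.0% in cKO libraries, which overlapped. Of the 34 middle segments, 33 had a positive Log2FC with a median of 0.63, and 6 were called higher and 0 lower with edgeR's quasi-likelihood test. The share called higher was near the 17.1% of all genes. The proximal segments had a median of 0.08, with 1 called higher and 2 lower (12.6% of all genes were lower). Segments on the minus strand held 47.4% and 46.6% in Ctrl and 54.3% and 53.5% in cKO sPre-B cells. No test was run on these shares. Position, strand and family overlap, so these are not separate differences. Most middle segments and every segment of family 4 are on the minus strand, and every segment of family 3 is proximal and on the plus strand.

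By family, family 4 held 15.5% and 14.7% of the *Igkv* counts in Ctrl and 19.4% and 19.7% in cKO sPre-B cells, with 26 of its 28 segments at a positive Log2FC. Family 3 held 12.8% and 14.4% in Ctrl and 8.42% and 8.76% in cKO cells, with 2 of its 9 segments called lower and 1 higher. Of the 4 segments of family 9, 3 were called higher and 0 lower. Of all genes, 17.1% were called higher and 12.6% lower. The 3 segments that GENCODE annotates as pseudogenes, *Igkv4-73*, *Igkv4-60* and *Igkv13-71-1*, held 0.66% and 0.79% in Ctrl and 2.73% and 2.24% in cKO sPre-B cells, most of it from *Igkv4-73*. *Igkv4-60* was at 1.19 and 1.33 CPM in Ctrl and 1.62 and 1.41 CPM in cKO sPre-B cells and did not pass the test (adjusted *P* = 0.810).

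Around *Igkv4-73* the neighbouring segments were described together after their values had been seen. The 8 segments from *Igkv4-79* to *Igkv4-70*, within chr6:69042972-69268412 (225 kb), summed to 15.3 and 16.6 CPM in Ctrl and 41.8 and 35.2 CPM in cKO sPre-B cells. In early LPre-B cells they summed to 0.466 and 0.497 CPM in Ctrl and 1.20 and 1.62 CPM in cKO cells. Their share of the *Igkv* counts was 2.76% and 3.03% in Ctrl and 5.99% and 5.64% in cKO sPre-B cells. All 8 had a positive Log2FC between genotypes in sPre-B cells, from 0.51 upward, and 4 were called higher, against 17.1% of all genes. In early LPre-B cells 4 were called higher, against 12.7% of all genes, and 2 had a negative Log2FC (*Igkv4-74* at −0.70 and *Igkv4-72* at −0.15). Over the 8 fits without 1 library, the early LPre-B calls of *Igkv4-73* and *Igkv4-79* were kept in all 8, that of *Igkv4-71* in 5 and that of *Igkv4-70* in 2, and the sPre-B calls of *Igkv4-73* and *Igkv13-71-1* were kept in all 8 and those of *Igkv4-78* and *Igkv4-74* in 4 each. *Igkv4-73*, around which the stretch was chosen, gave 16.8 and 12.4 CPM of the sums in cKO sPre-B cells. The segments of this stretch are up to 96.4% identical to each other in their exons, and how the counting divided reads between such paralogs was not tested.

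**Figure D5:**
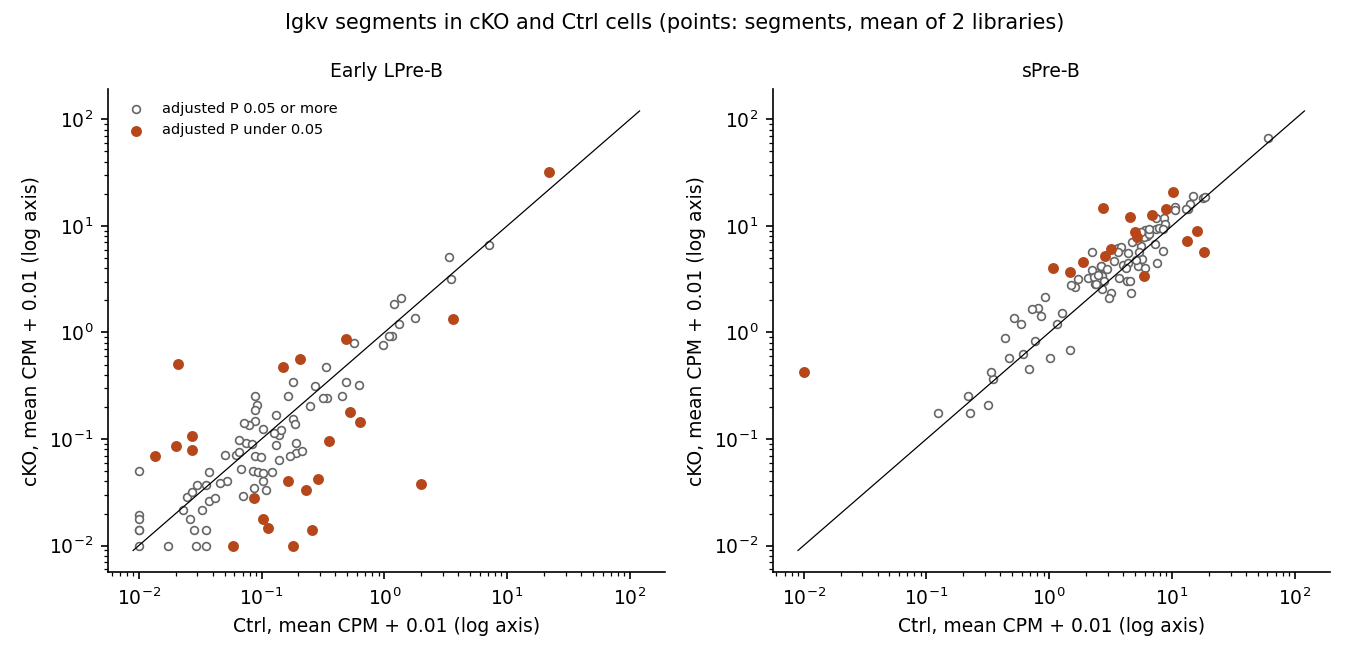
Mean CPM plus 0.01 of each segment in cKO (vertical axis, logarithmic) against Ctrl cells (horizontal axis, logarithmic) in early LPre-B (left) and sPre-B cells (right), with filled points at an adjusted *P* under 0.05 and the line of equality. In sPre-B cells most points lie close to the line, whereas in early LPre-B cells the segments below 1 CPM scatter on both sides.

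In early LPre-B cells, 9 segments were higher and 14 were lower in the cKO-labelled libraries, against 12.7% and 13.9% of all genes, with a median Log2FC of −0.21 over the segments and −0.06 over all genes. The libraries of the genotypes did not overlap for 20 higher and 28 lower segments, against 28.8% and 33.6% of all genes. By position, the proximal segments had 0 higher and 7 lower of 35 segments and a median of −1.01, the middle segments 5 higher and 4 lower of 34 and a median of 0.25, and the distal segments 4 higher and 3 lower of 34 and a median of −0.29. The counts were low, with a median over the segments of 21 counts in the 2 Ctrl and 16 in the 2 cKO libraries together. With the 4 early LPre-B libraries fitted alone, 88 segments were tested, 4 of them higher and 8 lower, without cKO replicate 1 of early LPre-B cells 6 were higher and 8 lower, and without cKO replicate 2 there were 4 and 21.

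The 7 lower segments that kept the call in each fit without 1 library were *Igkv2-137*, *Igkv16-104*, *Igkv1-35*, *Igkv8-24*, *Igkv3-12*, *Igkv3-7* and, named after its values were seen, *Igkv3-10*. *Igkv16-104* had 19 and 16 counts in Ctrl libraries, against 0 and 0 in cKO early LPre-B cells. It was 12.8-fold lower in cKO against a floor of 3 counts over the cKO group (adjusted *P* = 3.31e-04). *Igkv8-24* had 8 and 3 against 0 and 0 counts, 4.04-fold lower in cKO against the same floor (adjusted *P* = 0.00254). Neither fold allows for the counting error of the Ctrl reads. *Igkv3-12* had 19 and 28 against 0 and 1 counts (Log2FC −5.43 ± 0.97 (SE), adjusted *P* = 0.00355), with a Log2FC of −7.53 to −4.65 over those fits. The Ctrl libraries of each of these segments were above the cKO libraries, but the values rest on few reads.

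*Igkv2-137* had more reads, with 68 and 42 counts in the Ctrl libraries and 16 and 25 in cKO early LPre-B cells (Log2FC −1.57 ± 0.28 (SE), adjusted *P* = 0.00357). *Igkv1-35* had 77 and 54 against 8 and 25 counts (Log2FC −2.19 ± 0.44 (SE), adjusted *P* = 0.00637), and its Log2FC was −3.05 without cKO replicate 2. *Igkv1-135*, the leading segment of sPre-B cells, was at 2.64 and 4.65 CPM in Ctrl and 0.885 and 1.77 CPM in cKO early LPre-B cells (Log2FC −1.43 ± 0.31 (SE), adjusted *P* = 0.00956), and its call was lost without Ctrl replicate 2 or cKO replicate 1, with a Log2FC of −2.02 to −0.93 over the 8 fits. *Igkv4-59* had 534 and 6 counts in the Ctrl libraries and 1 and 6 in cKO early LPre-B cells. Its high level was in Ctrl replicate 1 alone, and the call was lost without that library and without either cKO library.

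Of the segments that were higher in cKO early LPre-B cells, *Igkv4-73*, *Igkv4-79* and *Igkv4-92* kept the call in each fit without 1 library. *Igkv4-79* had 26 and 7 counts in the Ctrl libraries and 55 and 54 in cKO cells (Log2FC 1.65 ± 0.35 (SE), adjusted *P* = 0.00834), with a Log2FC of 2.38 without Ctrl replicate 1. *Igkv4-92* had 28 and 15 against 61 and 72 counts (Log2FC 1.49 ± 0.26 (SE), adjusted *P* = 0.00325). The libraries of the genotypes did not overlap for either segment in CPM. *Igkv1-88* was at 22.4 and 21.1 against 36.7 and 28.1 CPM (Log2FC 0.57 ± 0.15 (SE), adjusted *P* = 0.0203), and *Igkv10-94* at 0.474 and 0.484 against 0.766 and 0.960 CPM (Log2FC 0.85 ± 0.22 (SE), adjusted *P* = 0.0196). Both lost the call in at least 2 of the 8 fits.

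Whether the stage difference itself differed between the genotypes was tested with the interaction term. The term is the stage Log2FC in cKO minus that in Ctrl cells. With an adjusted *P* below 0.05 it was called above 0 for 3 segments and below 0 for 1, against 2.22% and 1.33% of all genes. It had a positive value for 74 of the 103 segments and 56.3% of all genes, with a median over the segments of 0.73 and over all genes of 0.07. *Igkv16-104* (6.31, adjusted *P* = 0.0112) and *Igkv8-24* (4.87, adjusted *P* = 0.0297) had 0 counts in cKO early LPre-B cells, so the size of the term depends on the fit. *Igkv4-53* was at 25 and 10 counts in the Ctrl libraries and 5 and 2 in cKO early LPre-B cells and at 3.22 and 3.54 against 4.93 and 4.35 CPM in sPre-B cells (2.83 ± 0.54, adjusted *P* = 0.0284), and the term was 3.72 without cKO early LPre-B replicate 1 and 2.21 without replicate 2. *Igkv4-92* had the lower stage difference in cKO cells (−1.80 ± 0.34, adjusted *P* = 0.0268). None of the 4 calls was kept in all fits without 1 library, and the fits without 1 library gave 1 to 6 segments called above 0. That number was 17 with the likelihood-ratio test and 19 without a filter on low counts.

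The order of the segments by counts was stable between the libraries of a group in sPre-B cells and less so in early LPre-B cells. Spearman's rho over the 103 segments was 0.97 between the 2 Ctrl and 0.95 between the 2 cKO sPre-B libraries, and 0.75 and 0.85 between the early LPre-B libraries. Between genotypes it was 0.85 to 0.89 in sPre-B and 0.59 to 0.72 in early LPre-B cells. Between the stages within a genotype it was 0.34 to 0.55. These values describe segments that share libraries and lengths. For 18 segments the exons were at least 97% identical to those of another segment, among them *Igkv5-43* and *Igkv5-45* (98.4%), *Igkv8-18* and *Igkv8-26* (97.8%) and *Igkv1-110* and *Igkv1-117* (97.5%), and the division of reads within such pairs is uncertain. *Igkv8-23-1* overlaps the gene *Gm43218* in the annotation, and the division of reads between these overlapping genes is also uncertain.

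The other genes of κ rearrangement, taken from a list of J and C segments, recombinase, end joining and transcription factors, were read beside the segments. All 6 J and C genes were higher in sPre-B cells of both genotypes, where the 5 J segments summed to 223 and 266 CPM in Ctrl and 300.03 and 288 CPM in cKO cells, against 52.1 and 75.8, and 49.2 and 51.7, in early LPre-B cells. Of all genes, 25.4% were higher in sPre-B cells of Ctrl and 27.4% in those of cKO mice. Between genotypes, 1 of the 6 was higher in sPre-B cells (*Igkc*), against 17.1% of all genes, and in early LPre-B cells 1 was higher (*Igkc*) and 1 lower (*Igkj1*), against 12.7% and 13.9%. *Rag1*, a subunit of the recombinase, was at 412 and 382 CPM in Ctrl and 44.2 and 75.4 CPM in cKO early LPre-B cells and at 3498 and 2955 against 1490 and 1611 CPM in sPre-B cells. It was lower in cKO cells at both stages (Log2FC −2.73 ± 0.25 (SE), adjusted *P* = 9.53e-05, and −1.06 ± 0.23, adjusted *P* = 0.00850). *Rag2* was lower in cKO early LPre-B cells (Log2FC −1.03 ± 0.13, adjusted *P* = 5.84e-04), at 89.6 and 85.4 CPM in Ctrl against 36.6 and 48.9 CPM in cKO libraries. In sPre-B cells it was at 155 and 143 against 130.3 and 138 CPM and did not pass the test (Log2FC −0.15 ± 0.13, adjusted *P* = 0.428). *Dntt*, which adds bases at the joints, was lower in cKO cells at both stages (Log2FC −3.31 ± 0.20, adjusted *P* = 1.79e-05 in early LPre-B, and −0.72 ± 0.20, adjusted *P* = 0.0250 in sPre-B cells).

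Of the 7 end-joining genes, 4 were higher and 2 lower in sPre-B cells of each genotype, against 25.4% and 27.6% of all genes in Ctrl and 27.4% and 27.6% in cKO cells. Between genotypes 1 was higher and 3 lower in sPre-B cells, against 17.1% and 12.6% of all genes. The lower ones were *Xrcc5* (Log2FC −0.63 ± 0.11), *Xrcc6* (−1.01 ± 0.16), which encode the Ku subunits, and *Lig4* (−0.45 ± 0.12), the ligase of end joining. *Prkdc*, the catalytic subunit of the DNA-dependent protein kinase, was higher, at 95.7 and 116 CPM in Ctrl and 206 and 195 CPM in cKO cells. Of 17 genes listed for the regulation of the κ locus, which are transcription and chromatin factors and the chemokine receptor gene *Cxcr4*, 12 were higher and 3 lower in sPre-B cells of Ctrl mice, and 13 and 3 in cKO mice, against 25.4% and 27.6%, and 27.4% and 27.6%, of all genes. *Ikzf3*, a zinc-finger factor of pre-B cells, went from 262 and 265 to 853 and 926 CPM in Ctrl cells, and *Brwd1*, a reader of acetylated histones at the κ locus, from 109.7 and 196 to 612 and 815 CPM. Between genotypes 13 of the 17, *Cxcr4* included, were lower and 0 higher in early LPre-B cells (13.9% and 12.7% of all genes), and 7 lower and 1 higher in sPre-B cells (12.6% and 17.1%), by edgeR's quasi-likelihood test. *Spi1*, which with IRF4 binds a κ enhancer, was at 53.9 and 47.1 CPM in Ctrl and 31.1 and 28.0 CPM in cKO early LPre-B cells (Log2FC −0.77 ± 0.11, adjusted *P* = 9.15e-04).

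Markers of cells that make κ chains outside these stages moved with the genotype, although the methods give both sorted populations as negative for surface IgM, which immature and mature B cells carry. They also moved with the stage, with 5 of 8 markers of immature and mature B cells higher and 1 lower in Ctrl sPre-B than in Ctrl early LPre-B libraries and 6 higher and 1 lower in cKO mice, against 25.4% and 27.6%, and 27.4% and 27.6%, of all genes. *Ms4a1*, which encodes CD20, went from 1.76 and 1.60 to 84.3 and 110.1 CPM in Ctrl mice (Log2FC 5.84 ± 0.44 (SE), adjusted *P* = 5.16e-06). Of these 8 markers of immature and mature B cells, 5 were higher and 0 lower in cKO than in Ctrl sPre-B libraries, against 17.1% and 12.6% of all genes, and their levels summed to 948 and 995 CPM in Ctrl and 2203 and 1483 CPM in cKO libraries, with none at 0. *Fcer2a* was at 6.01 and 5.32 CPM in Ctrl and 83.4 and 29.9 CPM in cKO sPre-B cells, and *Ms4a1*, which did not pass the test between genotypes, at 84.3 and 110.1 against 254 and 96.8 CPM. The higher value of both was in cKO replicate 1, the library whose *Igkv* total was highest. In early LPre-B cells these 8 markers summed to 530 and 517 CPM in Ctrl and 918 and 771 CPM in cKO libraries, with 3 higher, against 12.7% of all genes. Their part in the *Igkv* differences between stages and genotypes was not tested. Of 6 plasma cell markers, *Sdc1* and *Irf4* were lower and 0 higher in cKO cells at each stage, against 13.9% of all genes lower in early LPre-B and 12.6% in sPre-B cells, and *Jchain* was at most 2.31 CPM in any library. Between the stages 3 of these 6 were higher in Ctrl and 2 in cKO sPre-B libraries, and 0 were lower, against 25.4% and 27.4% of all genes higher. *Prdm1* went from 1.22 and 1.04 to 15.6 and 7.68 CPM in Ctrl cells. T cell, myeloid and erythroid markers summed to at most 2.08, 59.5 and 26.6 CPM.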

How the data were processed

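RNA sequencing counts of 8 libraries were analysed. According to the methods, the libraries were rRNA-depleted and directional, and were sequenced on the DNBSEQ-T7. The authors deposited raw counts per Entrez gene, obtained with featureCounts after trimming in Trim Galore and paired-end, unstranded alignment to mm10 by HISAT2. Strand was not used, so overlapping genes cannot be told apart, and reads of near-identical segments may have been divided or lost.

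Genes were named from RefSeq (25275 of 27179), which also gave the positions of the segments. Strands, exons and the position of *Igkj1* came from GENCODE M21, and both sources were on GRCm38. *Igkv8-23-1* had no GENCODE entry under its symbol, and so no strand or exon length. The 19920 genes with at least 10 counts summed over the libraries were fitted together in edgeR 4.0.16 (R 4.3.3) with TMM factors of 0.855 to 1.09, 1 mean per group and the quasi-likelihood test. *P* values were adjusted by Benjamini-Hochberg over every gene fitted, with a threshold of 0.05. The 8 libraries shared 1 estimate of the spread. Where a group was at 0, the fold given set that group to 3 counts and took the other group at its measured level. The scripts were tested on simulated data. Segments were ranked by CPM or counts, which are not corrected for length, and levels of named segments were also given as CPM per kb of exon. Totals, shares and correlations over segments are descriptions without a test, and figures were drawn with matplotlib 3.10.9. The alternatives were the edgeR likelihood-ratio test, DESeq2 1.42.0, median-ratio factors, TMM without immunoglobulin genes, CPM without factors, scaling to the *Igkv* total, other filters on low counts, a replicate block, a fit of only the libraries compared, and leaving out each library.

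The segments named were the 8 with the highest level in Ctrl sPre-B cells, the highest of each family with at least 4 members, the 3 largest differences in each direction and comparison among called segments with non-overlapping libraries and 50 counts or more in both libraries with the higher level, the 2 most counted pseudogenes, the segments nearest to and farthest from the J segments and the lowest in counts. For the interaction, overlap was not considered and the 50 counts were asked of 1 of the 4 groups. The members and lists were chosen with earlier results of these data known. Promoter and recombination signal sequences were not analysed here.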

Additional observations from a re-analysis of the deposited data

Results flagged for a closer look

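The interaction term passed an adjusted *P* of 0.05 in edgeR's quasi-likelihood test for 4 segments, 3 above and 1 below 0 of 103, against 2.22% and 1.33% of all genes, a share near that of all genes, and 0 of the 4 calls were kept in every fit without 1 library. The stage Log2FC was larger in cKO than in Ctrl cells by 6.31 for *Igkv16-104*, by 4.87 for *Igkv8-24* and by 2.83 for *Igkv4-53*, and the difference was −1.80 for *Igkv4-92*. *Igkv16-104* and *Igkv8-24* had 0 counts in both cKO early LPre-B libraries, so these 2 values depend on the fit. Of the 8 fits without 1 library, the call was kept in 7 for *Igkv16-104*, in 2 for *Igkv4-53* and in 1 each for *Igkv8-24* and *Igkv4-92*.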

How the results depend on the processing

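Leaving out 1 library gave 95 to 97 higher and 3 to 3 lower segments between stages in Ctrl cells, and 97 to 98 and 1 to 1 in cKO cells. Between genotypes it gave 4 to 16 higher and 0 to 5 lower in sPre-B cells, and 4 to 8 higher and 8 to 21 lower in early LPre-B cells, and for the interaction 1 to 6 and 0 to 1. Scaling to the *Igkv* total, which shifted Log2FC by −3.16 and −3.28 between stages and by −0.26 and −0.14 between genotypes, gave 70 higher and 8 lower segments in Ctrl and 74 and 7 in cKO cells between stages, from 96 and 3 and from 98 and 1, 7 higher in cKO sPre-B cells and 5 higher for the interaction. The new library sizes apply to all genes, so by construction *Igkv3-1*, whose stage difference in Ctrl cells was smaller than the shift, reversed to −0.75. Fitting only the libraries compared gave 22 higher and 7 lower in sPre-B cells and 4 and 8 in early LPre-B cells, of which 88 segments were tested. DESeq2 gave 7 lower in cKO sPre-B cells. The interaction gave 17 higher and 2 lower with DESeq2 and with the likelihood-ratio test, and 19 and 2 without a filter. The cause was not tested.

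The difference between replicates 1 and 2 of a group (log2 CPM of each gene) was correlated with that of another group over all 19920 genes. Between the stages r was 0.31 in Ctrl and 0.20 in cKO cells, and between groups of unlike genotype it was 0.04 to 0.17. Over the 103 segments r between the stages was 0.11 in Ctrl and 0.08 in cKO cells. The replicate 2 libraries of Ctrl mice share a low *Xist* level, but no label says that same-numbered libraries share an animal. A replicate block gave 96 higher and 3 lower segments in Ctrl and 98 and 1 in cKO cells between stages, 15 and 5 in sPre-B and 7 and 14 in early LPre-B cells between genotypes, and 6 and 1 for the interaction. A replicate block within each genotype, chosen after seeing the data, gave 12 higher for the interaction.

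The mean *Igkv* total of Ctrl early LPre-B cells was 55.6 CPM without factors. That of Ctrl sPre-B cells was 571 CPM without factors, 561 CPM with median-ratio factors and 559 CPM with TMM without immunoglobulin genes. Without the most counted segment, the 10 leading segments held 30.7% in Ctrl and 28.2% in cKO sPre-B cells. Of the counts of calls and the *Igkv* totals and shares under all settings, 41 moved by over 1.5 times (counts) or by over the replicate SD (totals and shares) and 149 moved by less. Over all settings, 42 values of named segments lost their call, 1 reversed and 626 kept both direction and call. Counts were low in early LPre-B cells, where 13 segments in Ctrl and 18 in cKO cells had at most 3 counts in both libraries together.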
